A study of Mus musculus with 13 samples.

Results

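A set of 10 genes of the response to low oxygen was followed through embryonic and newborn mouse back skin, by keratinocyte stage and cell type, in wild-type (WT) and Grhl3-/- mice. They were taken by symbol from a fixed list, and 10 of 10 were found among the 27998 genes of the deposited tables: Ndufa4l2, Slc2a1, Pgk1, Ldha, Vegfa, Egln3, Bnip3, Ankrd37, Pfkp and Hif1a. Ndufa4l2 leads the list and was chosen by its measured level in suprabasal cells at E14.5, and the other members were added with earlier results of these data known, so levels by stage and cell type are given as a description, with no test. For the same reason, every difference of Ndufa4l2 that has E14.5 suprabasal-like cells as an arm is given as a value with no test.

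The data are 13 single-cell RNA libraries in which each unique molecular identifier (UMI) stands for 1 captured transcript. Whole back skin was taken at E14.5 and at E16.5 from 2 WT and 2 Grhl3-/- embryos each, and back epidermis peeled from the dermis was taken around birth (P0) from 2 WT and 2 Grhl3-/- mice. A further P0 WT library was made with the older v1 chemistry and entered no test, so every P0 test rests on 2 WT libraries; its level is given beside the P0 results of the 10 genes, and chemistry cannot be told apart from library. All mice were on the C57BL/6 background and WT and Grhl3-/- animals were littermates, each group of 2 being a male and a female. Grhl3, an epidermal transcription factor, is disrupted in the germ line of the Grhl3-/- animals and so in all of their cells, and all Grhl3-/- embryos had an open spine; skin was taken from the anterior back, away from the defect. P0 skin was digested overnight and embryonic skin for 2 h, so tissue and digest cannot be told apart from age between E16.5 and P0.

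Libraries held 49245953 to 107038146 UMIs, with 5058 to 9157 cells kept and a median of 7448 to 9976 UMIs per cell. Library pairs shared 0 to 114 cell barcodes. Cells of the interfollicular epidermis (IFE) were rebuilt by clustering without the 10 genes and called basal-like or suprabasal-like from fixed markers. All 8 basal markers, Krt14 and Krt5 among them, were detected in basal-like cells of every library, and 7 or 8 of the 8 spinous markers, such as Krt1 and Krt10, in suprabasal-like cells. The classes were named from these markers, and any UMI in the class counted as detection, so this does not show how pure the classes were. In P0 suprabasal-like cells the summed basal markers were higher in Grhl3-/- than in tested WT libraries, as given below. Grhl3 itself, counted at its 3′ end, was at 26.9 and 26.4 CPM (UMIs of the gene per 1000000 UMIs of the class) in the suprabasal-like cells of P0 WT libraries and at 7.38 and 9.06 CPM in the Grhl3-/- libraries, a log2 difference of -1.78 ± 0.20 (SE, edgeR adjusted p = 4.6e-05). At E14.5 it was at 85.3 and 108 CPM against 58.1 and 63.3 CPM, and the difference of -0.67 ± 0.18 did not pass the test (adjusted p = 0.091). The part of the gene removed in the mutant was not given in the sources used here, so the remaining Grhl3 UMIs do not bear on the labels.

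As background, cells sense oxygen through prolyl hydroxylases, Egln3 among them, which mark the alpha subunit of the hypoxia-inducible factor (HIF) for degradation when oxygen is at hand. When oxygen is scarce, HIF1A, the product of Hif1a, persists and binds a short core sequence near its targets. Those targets raise glucose uptake and glycolysis (Slc2a1, Pfkp, Pgk1, Ldha), lower the use of oxygen by mitochondria (Ndufa4l2, Bnip3) and call in vessels (Vegfa). HIF1A is set mainly at the level of its protein, which RNA counts do not show. Embryonic and newborn epidermis holds no vessels of its own and is supplied from the dermis.

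The core of the HIF site was looked for in the 250 bases before the transcription start. RefSeq promoters of GRCm38.p6 were at hand for 9 of the 10 genes. Read on both strands, ACGTG was found in 16.6% of all 32851 such mouse windows, the variant GCGTG in 28.2%, and at least 1 of the pair in 38.6%. The stretches of Slc2a1, Ldha, Bnip3 and Pfkp are printed because these genes had the highest log2 differences among the members in Grhl3-/- suprabasal-like cells at P0. They run 5′ to 3′ on the gene's strand and end at the base before the start; capitals mark a match to either core on either strand.
Slc2a1 (chr4:119108495-119108744, plus strand): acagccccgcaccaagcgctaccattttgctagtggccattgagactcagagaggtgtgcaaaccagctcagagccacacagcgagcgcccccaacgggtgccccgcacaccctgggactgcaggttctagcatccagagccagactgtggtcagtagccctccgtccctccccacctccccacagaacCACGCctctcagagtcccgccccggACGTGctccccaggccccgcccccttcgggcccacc
Ldha, the more 5′ of a pair of RefSeq starts (chr7:46845554-46845803, plus strand): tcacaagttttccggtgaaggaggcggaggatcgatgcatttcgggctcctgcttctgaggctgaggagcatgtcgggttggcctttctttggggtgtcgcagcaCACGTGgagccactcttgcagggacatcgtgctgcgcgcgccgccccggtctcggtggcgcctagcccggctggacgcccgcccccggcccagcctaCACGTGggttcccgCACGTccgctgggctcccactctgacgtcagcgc
Bnip3 (chr7:138909507-138909756, minus strand): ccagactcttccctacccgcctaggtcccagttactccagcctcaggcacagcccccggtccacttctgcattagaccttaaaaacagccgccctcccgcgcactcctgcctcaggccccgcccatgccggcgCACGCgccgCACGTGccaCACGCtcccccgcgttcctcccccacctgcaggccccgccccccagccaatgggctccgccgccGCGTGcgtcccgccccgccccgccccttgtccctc
Pfkp (chr13:6648772-6649021, minus strand): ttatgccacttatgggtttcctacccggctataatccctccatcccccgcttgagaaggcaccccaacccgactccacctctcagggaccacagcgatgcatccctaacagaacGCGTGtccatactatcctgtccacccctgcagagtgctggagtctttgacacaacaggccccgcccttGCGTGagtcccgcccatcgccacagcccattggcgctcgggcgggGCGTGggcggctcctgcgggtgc
Slc2a1 held 1 match to each core. The printed Ldha window held 5 matches to ACGTG, of which 4 came from a pair of CACGTG palindromes read on both strands. The window of its other start, not printed, held 0 to ACGTG and 1 to GCGTG. Bnip3 held 2 to ACGTG, both from a single CACGTG palindrome, and 3 to GCGTG, and Pfkp 3 to GCGTG. G and C made up 62.8% to 72.4% of the printed windows. The printed Ldha window lies inside the GENCODE model of the gene, whose first base is further 5′, since RefSeq starts and GENCODE ends need not coincide. Such matches are letters in a window, not bound sites.

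Ndufa4l2 (chr10:127514967-127517154, plus strand) encodes a relative of the cytochrome c oxidase subunit Ndufa4 and is known as a HIF target that damps mitochondrial respiration. It was the member with the widest step from basal-like to suprabasal-like cells. In the basal-like cells of E14.5 skin it was at 28.4 and 8.92 CPM in the WT libraries and at 7.91 and 22.2 CPM in the Grhl3-/- libraries. In suprabasal-like cells of the same libraries it was at 309 and 218 CPM in WT and at 711 and 1072 CPM in Grhl3-/-. Every suprabasal value thus lay far above every basal value at this age, and the Grhl3-/- values lay above the WT values in suprabasal-like cells only.

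By E16.5 both stages of WT epidermis held more Ndufa4l2. Basal-like cells were at 116 and 141 CPM in WT and at 68.3 and 64.6 CPM in Grhl3-/- libraries. Suprabasal-like cells were at 1284 and 1314 CPM in WT and at 943 and 806 CPM in Grhl3-/- libraries. At this age the 2 Grhl3-/- libraries were the lower ones in both stages. At P0, basal-like cells were at 196 and 173 CPM in WT and at 273 and 275 CPM in Grhl3-/- libraries, and suprabasal-like cells at 825 and 579 CPM against 974 and 1196 CPM. The P0 Grhl3-/- libraries were the higher ones in both stages, and the v1 library, with 126 CPM in basal-like and 539 CPM in suprabasal-like cells, kept the step between the stages. Over the 12 tested libraries the level in suprabasal-like cells was 3.35 to 89.9 times that in basal-like cells, with a median of 10.96, and it was higher in 12 of 12.

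**Figure D1:**
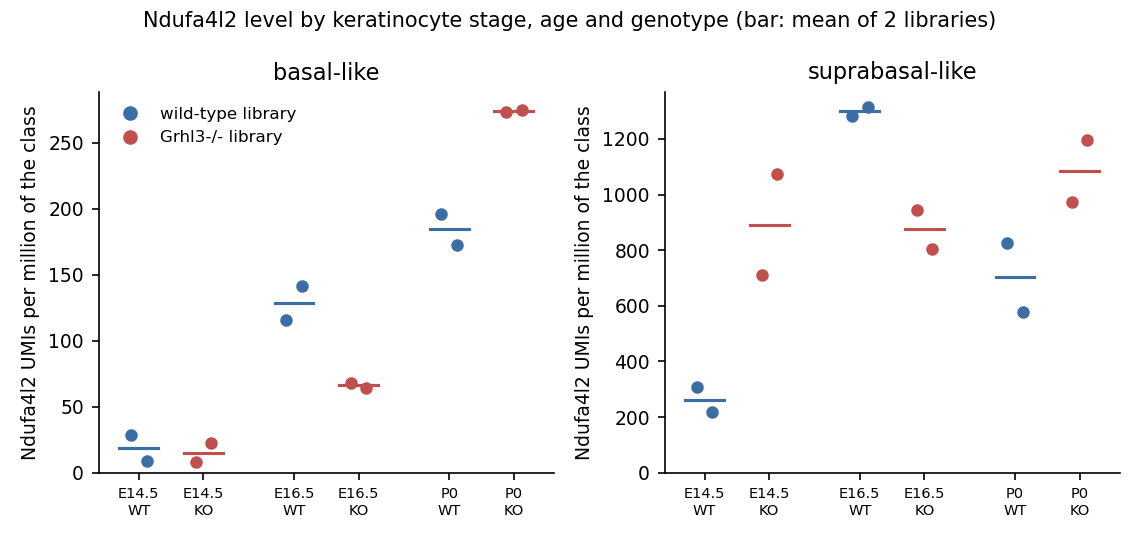
Ndufa4l2 in CPM, for basal-like and suprabasal-like cells of each age and genotype group. Each point is 1 library and each bar the mean of the group. The suprabasal-like values run from 218 to 1314 CPM over the 12 tested libraries, against 7.91 to 275 CPM in basal-like cells.

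Within WT skin, Ndufa4l2 rose 8.26-fold from E14.5 to E16.5 in basal-like cells (log2 difference 3.05 ± 0.33 SE, adjusted p = 4.6e-06). The E14.5 WT basal-like levels lay far apart, as given above. Classes with little Ndufa4l2 at E14.5, such as erythroid-like cells, rose over the same days. The part of RNA released by other cells in this rise was not tested. In suprabasal-like cells the E16.5 level was 6.32 times that at E14.5 (2.66 ± 0.27), given with no test because the E14.5 level chose the gene. From E16.5 to P0, the basal-like difference of 0.48 ± 0.24 did not pass the test (adjusted p = 0.088), while suprabasal-like cells fell by 0.82 ± 0.25 on the log2 scale (adjusted p = 0.019). That last call was lost without the second E16.5 WT library (-0.79, adjusted p = 0.089), without the second P0 WT library (-0.58, adjusted p = 0.12), and when clusters set aside for mixed markers were put back (-0.32, adjusted p = 0.31).

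In the fit, the E14.5 suprabasal-like level of Ndufa4l2 was 3.39-fold higher in Grhl3-/- libraries (1.76 ± 0.26). None of the other 9 members passed in this comparison, where 1.59% of the 11418 genes tested did. The difference was 1.53 without the second WT library, 1.42 without the second Grhl3-/- library and 1.14 when dividing cells were left out. At E16.5 the difference was -0.64 ± 0.25 (adjusted p = 0.19) and at P0 it was 0.54 ± 0.25 (adjusted p = 0.11). The P0 difference passed the test without the first WT library (0.86, adjusted p = 0.041). The suprabasal difference at E16.5 minus that at E14.5 was -2.41 ± 0.36 and the one at P0 minus that at E14.5 was -1.22 ± 0.36. Both take the E14.5 values by which the gene was chosen as an arm, so a smaller difference at other ages is built in; 1.19% and 18.8% of all genes passed between these ages.

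In basal-like cells the differences were 0.00 ± 0.39 at E14.5, -1.02 ± 0.27 at E16.5 and 0.56 ± 0.23 at P0, with adjusted p of 1, 0.16 and 0.069. With only the libraries of 1 age in the fit, the E16.5 differences passed in basal-like (-0.9996, adjusted p = 0.0017) and suprabasal-like cells (-0.64, adjusted p = 0.033), as did the P0 basal difference (0.56, adjusted p = 0.024). The difference at P0 exceeded that at E16.5 by 1.58 ± 0.36 (adjusted p = 0.0072; 14.1% of genes passed), while no member's basal difference passed between E16.5 and E14.5 (0.0335% of genes). At E14.5 the suprabasal difference exceeded the basal one by 1.88 ± 0.25 in a fit with the library as a block (7.44% of genes passed), again on the values that chose the gene, while at E16.5 it did so by 0.32 ± 0.16, which did not pass (adjusted p = 0.36; 2.89% of genes passed).

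**Figure D2:**
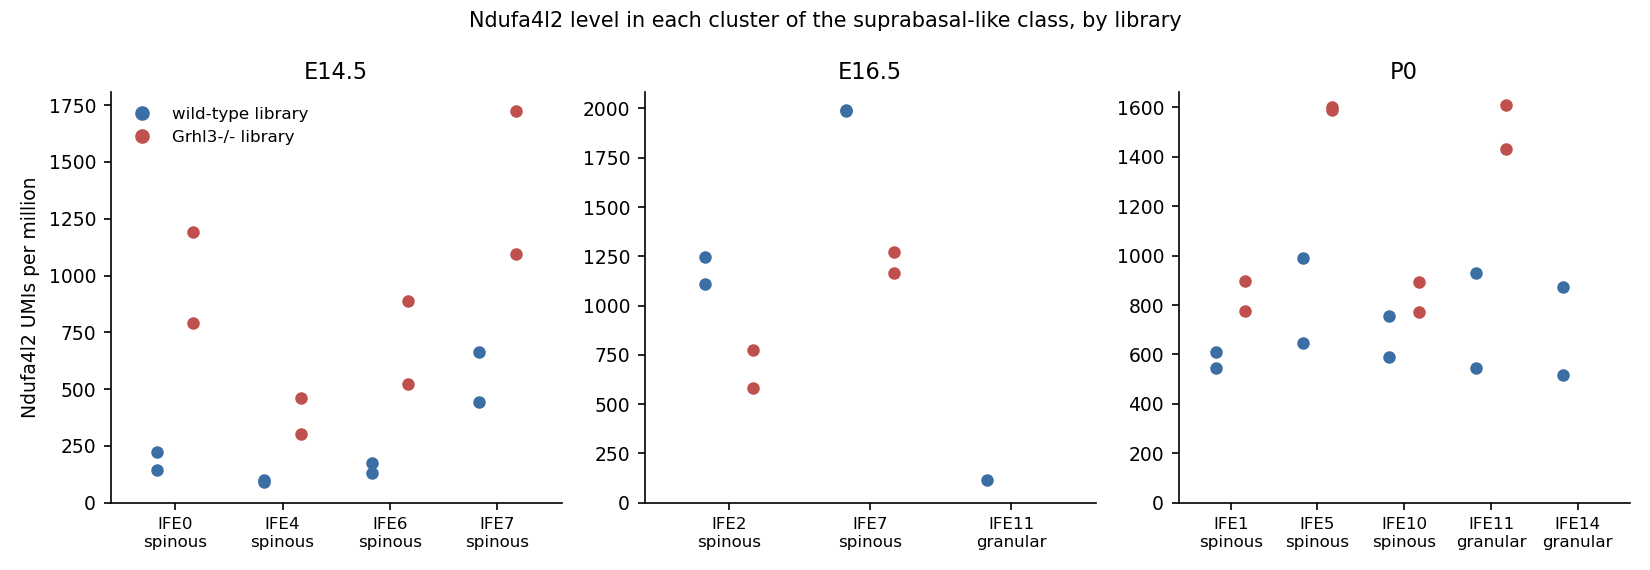
Ndufa4l2 in CPM for each cluster of suprabasal-like cells at E14.5, E16.5 and P0, with 1 point for each library that had at least 20 cells in the cluster. In each of the E14.5 clusters shown with both genotypes, the Grhl3-/- points lie above the WT points, for example 789 and 1192 CPM against 145 and 222 CPM in the cluster led by Stfa3 and Lgals7. The E14.5 values are parts of those by which the gene was chosen, so they are a description only.

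Suprabasal-like cells at E14.5 fell into 4 clusters. The one led by Stfa3, BC100530, Lgals7 and Krt1 held 139 of 265 and 379 of 669 suprabasal-like cells of the Grhl3-/- libraries, but 22 of 147 and 42 of 218 of the WT libraries. Ndufa4l2, which was not used to cluster, was among the genes that marked this cluster. Most cells of the cluster were Grhl3-/-, so a gene higher in Grhl3-/- cells would mark it through that mix. In WT libraries the Ndufa4l2 level there was below that of the cluster led by Krt77. Inside this cluster Ndufa4l2 was at 789 and 1192 CPM in Grhl3-/- and at 145 and 222 CPM in WT libraries. In the cluster led by Krt77, Ly6g6c and Lor, which are late differentiation genes, it was at 1095 and 1726 CPM in Grhl3-/- and at 665 and 445 CPM in WT libraries. The 2 clusters of dividing cells were at 303 and 459 CPM and at 524 and 887 CPM in Grhl3-/-, against 101 and 90.2 CPM and 176 and 133 CPM in WT libraries. The genotypes did not overlap inside any of the 4 clusters, and the cluster led by Stfa3 was also the more numerous in Grhl3-/- skin. These values are parts of those by which the gene was chosen, so they are a description and no further support. How many of all genes separate the libraries in this way was not counted.

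Other marker sums moved with genotype in the same cells. In suprabasal-like cells at E14.5 the summed granular markers were at 203 to 279 CPM in WT and 42.6 to 48.2 CPM in Grhl3-/- libraries, and the summed markers of dividing cells at 1445 to 1561 and 848 to 1003 CPM. Summed pericyte markers were at 71.3 to 77.3 CPM in WT and 67.0 to 79.4 CPM in Grhl3-/-, so they did not separate the genotypes. The summed genes of the dissociation response were at 7869 to 8656 CPM in WT and 7288 to 7499 CPM in Grhl3-/-. The part of the granular and dividing cells in the Ndufa4l2 difference was not tested beyond the fit without dividing cells.

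Shares of cells at E14.5 come from the same counts as the levels by which the gene was chosen, and are given as a description. With each cell thinned to 3000 UMIs, 35.4% and 27.5% of WT suprabasal-like cells had an Ndufa4l2 UMI, against 73.9% and 77.8% of Grhl3-/- cells, with 4 and 6 Grhl3-/- cells too shallow to thin. Unthinned, the shares were 66.0% and 60.1% against 88.3% and 90.4%. Endothelial-like cells, a class with little Ndufa4l2 at this age, were at 1.43%, 0.952%, 0.781% and 1.79% after thinning. Median depths were 11154 to 15354 UMIs in the suprabasal-like and 10064.5 to 11967 in the endothelial-like cells. Some other classes held more Ndufa4l2 than endothelial-like cells, as given below. The part of free RNA in these shares was not tested.

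Outside the epidermis, pericyte-like cells, which wrap small vessels, held the most Ndufa4l2. They were at 842 and 653 CPM in WT and 607 and 782 CPM in Grhl3-/- libraries at E14.5, and at 1928 and 2001 CPM against 1664 and 1753 CPM at E16.5. The E14.5 genotypes overlapped, and the E16.5 values lay above every E14.5 value. Endothelial-like cells stayed at 1.49 to 7.63 CPM at E14.5 and 15.2 to 26.3 CPM at E16.5. Other E14.5 classes had low levels, such as hair follicle-like cells at 3.57 to 41.5, dermal condensate-like cells at 5.76 to 21.0, macrophage-like cells at 3.82 to 11.7 and melanocyte-like cells at 2.77 to 10.8 CPM. At E16.5 dermal condensate-like cells were at 149 to 304 CPM and hair follicle-like cells at 117 to 163 CPM, above their E14.5 ranges. Erythroid-like cells also stood at 84.7 to 117 CPM there, after 0 to 15.0 CPM at E14.5. The E16.5 basal-like levels lay below this range in Grhl3-/- libraries and at its top or above it in WT libraries. The part of free RNA in the E16.5 levels was not tested. Neighbouring classes in this order, such as follicle-like and dermal condensate-like cells at E16.5, overlapped in range.

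**Figure D3:**
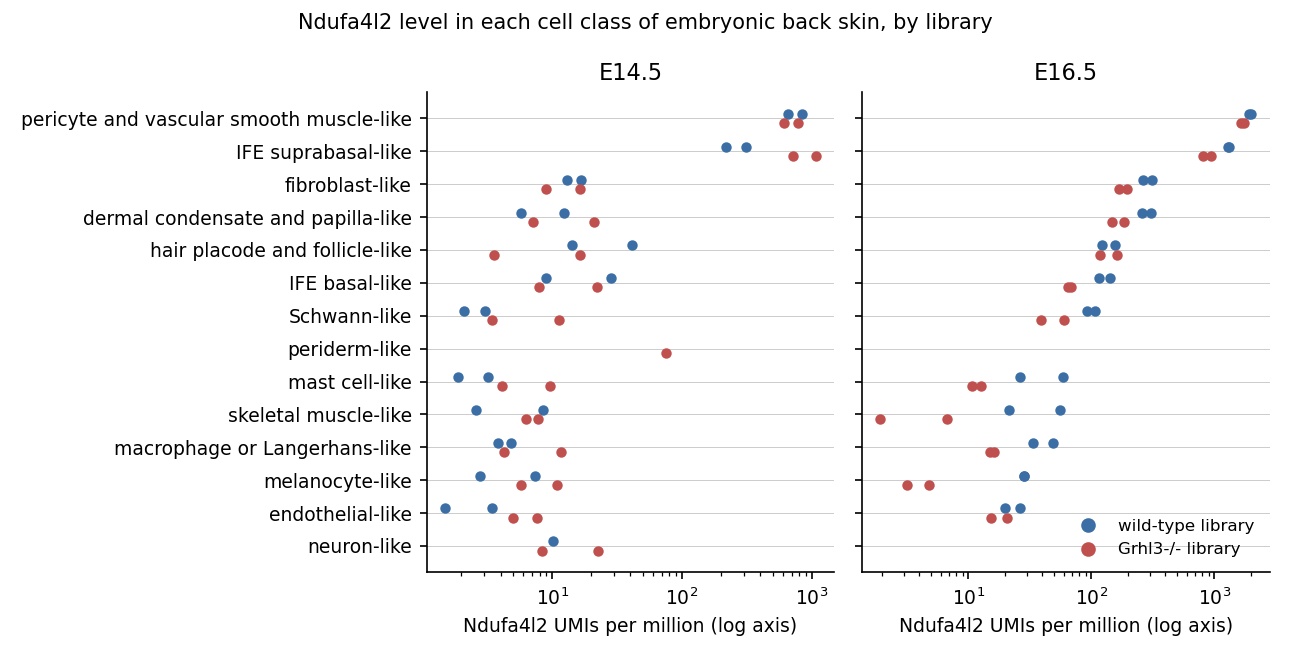
Ndufa4l2 in CPM, on a log axis, for the cell classes of the embryonic libraries, with 1 point for each library and age. Pericyte-like and suprabasal-like cells lie at the top at both ages and endothelial-like cells near the bottom, at 1.49 to 7.63 CPM at E14.5; erythroid-like cells are left out because 1 library was at 0.

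Fibroblast-like cells, the most numerous class of the embryonic libraries, showed the rise with age too. Ndufa4l2 went from 16.7 and 13.1 CPM in E14.5 WT libraries to 264 and 311 CPM at E16.5, a 22.6-fold difference (4.50 ± 0.23, adjusted p = 2e-06). In this comparison 39.4% of 13984 genes passed, 20% as higher and 19.4% as lower, and among the members 3 passed as higher and 6 as lower. Egln3 was higher (1.11 ± 0.20, adjusted p = 0.0022) and Pfkp was higher by 0.62 ± 0.18 (adjusted p = 0.024). Slc2a1, Pgk1, Ldha, Vegfa, Bnip3 and Ankrd37 fell by 0.37 to 0.77 on the log2 scale. Leaving out single libraries kept 3 to 6 of these 9 calls. Those of Ankrd37 (-0.44 to -0.31, adjusted p from 0.075 to 0.15) and Pfkp (0.53 to 0.71, adjusted p from 0.051 to 0.095) were lost without any 1 of the 4 libraries. The calls of Bnip3, Ldha, Pgk1 and Slc2a1 were lost without the first E16.5 WT library (-0.51, -0.38, -0.46 and -0.69), and some of them without others. Between genotypes, none of the 10 members passed in fibroblast-like cells at E14.5, where 2.39% of genes did. At E16.5 Ankrd37 passed, at 7.31 and 6.86 CPM in WT and 4.21 and 4.07 CPM in Grhl3-/- libraries (-0.78 ± 0.14, adjusted p = 0.038; 0.83% of genes passed). This call was lost without any 1 of the libraries (-0.84 to -0.71, adjusted p from 0.13 to 0.3), with the replicate block (-0.78, adjusted p = 0.094), with dividing cells left out (-0.74, adjusted p = 0.19), when clustered without integration (-0.64, adjusted p = 0.17) and by DESeq2 (-0.78, adjusted p = 0.17).

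Slc2a1 (chr4:119108711-119137983, plus strand) encodes the glucose transporter GLUT1. Its genotype difference was widest in suprabasal-like cells at P0. In basal-like cells it was at 304 and 327 CPM in WT and 227 and 246 CPM in Grhl3-/- libraries at E14.5, and at 221 and 251 against 299 and 351 CPM at E16.5. At P0 it was at 239 and 296 CPM in WT and 405 and 416 CPM in Grhl3-/- basal-like cells. The order of the genotypes thus differed between E14.5 and the later ages. The basal-like differences of -0.45 ± 0.13 at E14.5 and 0.38 ± 0.13 at E16.5 (adjusted p = 0.32 for the latter) did not pass. The effect at E16.5 minus that at E14.5 did not pass either (0.84 ± 0.19, adjusted p = 0.14). The effect at P0 minus that at E14.5 did (1.05 ± 0.19, adjusted p = 0.0013), as in 16.4% of genes.

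Suprabasal-like cells held Slc2a1 at 218 and 279 CPM in WT and 285 and 348 CPM in Grhl3-/- libraries at E14.5, and at 183 and 230 against 313 and 399 CPM at E16.5. At P0 the WT libraries were at 94.0 and 110 CPM and the Grhl3-/- libraries at 605 and 555 CPM. The P0 difference was 5.35-fold (2.42 ± 0.17, adjusted p = 3.1e-06), the highest among the members in any comparison of genotypes. The v1 WT library lay below the Grhl3-/- libraries too, at 80.3 CPM in suprabasal-like and 118 CPM in basal-like cells. In WT suprabasal-like cells the level fell from E16.5 to P0 by 0.96 ± 0.17 (adjusted p = 0.00075), so the gap at P0 came with a lower WT level and a higher Grhl3-/- level than at E16.5. The 1.62-fold difference at E16.5 (0.69 ± 0.17, adjusted p = 0.037) was the only member call in that comparison, where 4.81% of genes passed, and it was lost without any 1 of the 4 libraries (0.47 to 0.89, adjusted p from 0.062 to 0.31). In P0 basal-like cells Slc2a1 was higher by 0.60 ± 0.13 (adjusted p = 0.0018). The suprabasal difference at P0 exceeded the one at E16.5 by 1.73 ± 0.24 (adjusted p = 0.0019), the one at E14.5 by 2.06 ± 0.24 (adjusted p = 0.0002) and the basal one at P0 by 1.80 ± 0.20 (adjusted p = 2.2e-05); 7.28%, 18.8% and 13.6% of genes passed in these tests.

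By cluster, the P0 gap was widest in the granular-like cells marked by Krt6b and Krt6a, keratins known from wounded and inflamed skin, where Slc2a1 was at 27.1 and 36.4 CPM in WT and 715 and 439 CPM in Grhl3-/- libraries. In the cluster led by Clca3a2 and Krt16 it was at 159 and 203 against 497 and 522 CPM, and in the one with Sprr2a3, Ly6a and Hbegf at 191 and 207 against 722 and 830 CPM. In the cluster led by Them5, Krt1 and Krt10, WT libraries were at 64.3 and 85.1 CPM and the Grhl3-/- libraries at 428 and 46.7 CPM, so there the second Grhl3-/- library lay below both WT libraries. Outside the epidermis, Slc2a1 was at 86.7 to 442 CPM in E14.5 endothelial-like cells, 182 to 279 CPM in follicle-like cells and 16.9 to 31.5 CPM in fibroblast-like cells.

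Pfkp (chr13:6579768-6648777, minus strand) encodes the platelet isoform of phosphofructokinase, which commits glucose to glycolysis. It was scarce at E14.5, at 0.311 to 3.63 CPM in basal-like and 2.06 to 4.19 CPM in suprabasal-like cells over the 4 libraries, and it passed the filter on low counts through its later levels. At E16.5 suprabasal-like cells were at 21.5 and 15.0 CPM in WT and 31.6 and 34.7 CPM in Grhl3-/- libraries, and at P0 at 17.7 and 21.0 against 50.2 and 83.8 CPM. The P0 difference was 3.28-fold (1.72 ± 0.27, adjusted p = 0.00035). The v1 WT library was at 23.3 CPM, below both Grhl3-/- libraries. In basal-like cells at P0 the genotypes overlapped, at 14.7 and 24.4 CPM in WT and 19.8 and 22.2 CPM in Grhl3-/- libraries, and the suprabasal difference exceeded the basal one by 1.53 ± 0.27 (adjusted p = 0.0014). WT suprabasal-like cells were at 4.19 and 2.39 CPM at E14.5, below both E16.5 values, and WT basal-like cells at 2.61 and 3.82 CPM at E16.5, below both P0 values. Since the gene passed the filter through its higher groups, these age steps are given with no test.

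Ldha (chr7:46841475-46855627, plus strand) encodes the lactate dehydrogenase subunit that turns pyruvate to lactate. In basal-like cells it was at 1153 and 1001 CPM in WT and 820 and 970 CPM in Grhl3-/- libraries at E14.5, at 553 and 561 against 768 and 881 CPM at E16.5, and at 174 and 203 against 533 and 517 CPM at P0. In suprabasal-like cells it was at 1416 and 1397 against 1423 and 1709 CPM, at 1480 and 1696 against 1862 and 2134 CPM, and at 370 and 355 against 998 and 1394 CPM. The v1 P0 WT library was at 578 CPM in basal-like and 1027.5 CPM in suprabasal-like cells, so it lay above both Grhl3-/- libraries in the former and between them in the latter. The P0 differences of Ldha below thus hold against the 2 tested WT libraries and not against the v1 library. From E16.5 to P0 the level in the tested WT libraries fell by 1.60 ± 0.14 in basal-like (adjusted p = 4.6e-08) and by 2.07 ± 0.18 in suprabasal-like cells (adjusted p = 6.3e-06). The v1 basal-like level was above both E16.5 values. At P0 the Grhl3-/- level was 2.75-fold higher in basal-like cells (1.46 ± 0.14, adjusted p = 1.1e-06) and 3.12-fold higher in suprabasal-like cells (1.64 ± 0.18, adjusted p = 3.6e-05). P0 classes outside the IFE had the same order, given with no test. Follicle-like cells were at 149 and 164 CPM in WT and 551 and 562 CPM in Grhl3-/- libraries. T cell-like cells were at 677 and 736 against 1453 and 1574 CPM. The v1 library, at 545 and 1751 CPM in these classes, lay near or above the Grhl3-/- values. From E14.5 to E16.5, WT basal-like cells fell by 0.82 ± 0.14 (adjusted p = 0.00045). WT suprabasal-like cells rose by 0.53 ± 0.18 over the same days (adjusted p = 0.036), a call lost without either E14.5 WT library (0.57 and 0.52, adjusted p = 0.11 and 0.13) or the second E16.5 WT library (0.41, adjusted p = 0.22).

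Pgk1 (chrX:106187100-106203699, plus strand) encodes phosphoglycerate kinase, which forms ATP in glycolysis. Its 3′ end shared 34.3% of its stretches with transcripts of near-identical copies such as Pgk1-rs7, so its count is uncertain. Basal-like cells were at 44.2 and 34.5 CPM in WT and 30.7 and 37.3 CPM in Grhl3-/- libraries at E14.5, at 11.6 and 16.3 against 12.99 and 15.6 CPM at E16.5, and at 4.52 and 3.14 against 6.92 and 6.37 CPM at P0. The genotypes overlapped at both embryonic ages, and at P0 the Grhl3-/- libraries lay above the 2 tested WT libraries. The v1 WT library was at 20.4 CPM, above both Grhl3-/- libraries and every E16.5 value, and in suprabasal-like cells at 26.1 CPM against 11.9 and 16.3 CPM in Grhl3-/- libraries, so it went against the genotype differences. WT basal-like cells fell by 1.91 ± 0.25 from E16.5 to P0 (adjusted p = 4.1e-06), and the v1 level went against that fall too. WT basal-like cells fell by 1.33 ± 0.21 to E16.5 (adjusted p = 0.00032) and WT suprabasal-like cells by 2.14 ± 0.30 from E16.5 to P0 (adjusted p = 0.00016), where the v1 level of 26.1 CPM was just below the E16.5 values of 27.4 and 41.5 CPM. At P0 the Grhl3-/- basal-like level was higher by 0.80 ± 0.26 (adjusted p = 0.023). That call was lost without the second WT library (0.60, adjusted p = 0.16) and without the first Grhl3-/- library (0.65, adjusted p = 0.19), with dividing cells left out (0.85, adjusted p = 0.21), with only P0 libraries (0.799, adjusted p = 0.078) and by DESeq2 (0.79, adjusted p = 0.0898). The suprabasal difference of 0.80 ± 0.31 did not pass (adjusted p = 0.06), but passed without the first WT library (1.32, adjusted p = 0.0085) and without the first Grhl3-/- library (1.07, adjusted p = 0.037).

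Hif1a (chr12:73901375-73947530, plus strand) lay at 52.6 to 62.1 CPM in the tested WT basal-like cells over the 3 ages, and at 29.4 CPM in the v1 library. In suprabasal-like cells it was at 71.8 and 70.4 CPM in WT and 84.9 and 78.1 CPM in Grhl3-/- libraries at E14.5, at 123 and 132 against 105 and 132 CPM at E16.5, and at 64.0 and 58.2 against 114 and 124 CPM at P0. WT suprabasal-like cells rose to E16.5 (1.21 ± 0.14, adjusted p = 5.3e-05) and fell by 1.01 ± 0.14 to P0 (adjusted p = 0.00014). The P0 Grhl3-/- level was higher in suprabasal-like cells (0.88 ± 0.14, adjusted p = 0.00038) and lower in basal-like cells, at 42.4 and 40.5 CPM against 55.8 and 52.6 CPM in WT libraries (-0.40 ± 0.13, adjusted p = 0.021). The v1 WT library was below both Grhl3-/- libraries in basal-like cells, against the direction of that call, and also below them in suprabasal-like cells, at 33.2 CPM. The basal call was lost without the second Grhl3-/- library (-0.34, adjusted p = 0.086), with only P0 libraries (-0.39, adjusted p = 0.071) and by DESeq2 (-0.41, adjusted p = 0.077). The suprabasal call was lost when cells were clustered without integration (0.07, adjusted p = 0.8). The effect in suprabasal-like cells exceeded that in basal-like cells by 1.26 ± 0.20 (adjusted p = 0.00055).

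By cluster, Hif1a at P0 was at 42.1 and 38.3 CPM in WT and 159 and 156 CPM in Grhl3-/- libraries in the granular-like cells marked by Krt6b, but at 80.2 and 68.7 against 66.5 and 62.2 CPM in the cluster led by Clca3a2 and Krt16. The direction of the genotype difference was therefore not shared by the clusters.

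Egln3 (chr12:54178981-54203860, minus strand), the oxygen-sensing hydroxylase that is itself a HIF target, changed with age, and no genotype difference passed in the 2 stages. In WT suprabasal-like cells it was at 18.6 and 20.3 CPM at E14.5, at 61.7 and 55.3 CPM at E16.5 and at 132 and 166 CPM at P0. In the tested libraries the 3 ages did not overlap: it rose 3.83-fold to E16.5 (1.94 ± 0.19, adjusted p = 1.6e-05) and by 1.41 ± 0.17 to P0 (adjusted p = 5.4e-05). It also rose in WT basal-like cells from E16.5 to P0 (1.07 ± 0.24, adjusted p = 0.0011). The v1 P0 WT library was at 34.9 CPM in suprabasal-like and 11.9 CPM in basal-like cells, below the E16.5 WT values of each stage, so neither rise to P0 held against it. Grhl3-/- suprabasal-like cells were at 22.7 and 21.5, at 47.8 and 73.0, and at 137 and 159 CPM at the 3 ages, ranges that reached into the WT ranges at E16.5 and P0. The P0 difference was -0.09 ± 0.16 (adjusted p = 0.69), but in spinous-like cells alone it was -0.57 (adjusted p = 0.016).

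Bnip3 (chr7:138890836-138909519, minus strand) encodes a protein of the outer mitochondrial membrane that marks mitochondria for removal. Its order by stage turned with age in WT libraries. The E14.5 Grhl3-/- libraries had no clear order, with 19.8 and 26.3 CPM in basal-like and 19.6 and 26.5 CPM in suprabasal-like cells. At E14.5 WT basal-like cells were at 44.2 and 38.0 CPM and suprabasal-like cells at 13.98 and 17.9 CPM, whereas at E16.5 they were at 17.7 and 13.4 CPM against 59.0 and 70.3 CPM. It fell in WT basal-like cells by 1.26 ± 0.25 (adjusted p = 0.002) and rose in WT suprabasal-like cells 5.16-fold (2.37 ± 0.23, adjusted p = 1.4e-05) between these ages. From E16.5 to P0 the basal-like level rose (1.04 ± 0.22, adjusted p = 0.00072) and the suprabasal-like level fell by 0.67 ± 0.20 (adjusted p = 0.016), the latter lost without the second E16.5 WT library (-0.51, adjusted p = 0.16) without the first P0 WT library (-0.47, adjusted p = 0.11) and when clusters set aside were put back (-0.25, adjusted p = 0.28). The v1 P0 WT library, at 14.3 CPM in basal-like cells, lay between the E16.5 values, so the basal-like rise to P0 did not hold against it.

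At P0, Bnip3 in suprabasal-like cells was at 32.4 and 45.8 CPM in WT and at 114 and 129 CPM in Grhl3-/- libraries. This was a 2.93-fold difference (1.55 ± 0.20, adjusted p = 8.7e-05), and the v1 WT library, at 17.3 CPM, was lower still. In basal-like cells it was at 29.3 and 35.7 against 67.8 and 46.2 CPM (0.82 ± 0.20, adjusted p = 0.0037), a call lost without the first Grhl3-/- library (0.42, adjusted p = 0.12). At E16.5 the suprabasal values ran the other way, at 59.0 and 70.3 CPM in WT against 42.1 and 38.4 CPM, but the difference of -0.75 ± 0.23 did not pass (adjusted p = 0.097). The P0 effect exceeded the E16.5 effect by 2.30 ± 0.30 in suprabasal-like cells (adjusted p = 0.0014). P0 classes outside the IFE had the same order of genotypes for Bnip3, given with no test. Follicle-like cells were at 11.8 and 14.9 CPM in WT and 53.3 and 31.3 CPM in Grhl3-/- libraries. T cell-like cells were at 28.9 and 28.6 against 85.1 and 64.1 CPM.

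Vegfa (chr17:46016993-46032369, minus strand) encodes the growth factor that draws in vessels and was low in keratinocytes, at 3.09 to 24.7 CPM over both stages and all 12 libraries. In P0 suprabasal-like cells it was at 10.2 CPM in each WT library and at 24.7 and 23.8 CPM in the Grhl3-/- libraries (1.16 ± 0.19, adjusted p = 0.00057). Of the 4 clusters with values in both genotypes, the gap was widest in 1. In the granular-like cells marked by Krt6b it was at 6.65 and 12.5 CPM in WT and at 52.1 and 52.6 CPM in Grhl3-/- libraries, while in the cluster led by Clca3a2 it was at 15.8 and 11.5 against 14.54 and 11.5 CPM. In the cluster with Sprr2a3, Ly6a and Hbegf it was at 10.05 and 11.1 against 21.5 and 16.8 CPM, and in the one led by Them5 at 8.69 and 8.21 against 28.1 and 6.09 CPM, so the genotypes overlapped in the latter. The call was lost in spinous-like cells alone (0.51, adjusted p = 0.12) and when cells were clustered without integration (0.37, adjusted p = 0.35). In WT basal-like cells Vegfa fell by 1.198 ± 0.34 to E16.5 (adjusted p = 0.022), lost without any 1 of the 4 libraries (-1.44 to -1.04, adjusted p from 0.054 to 0.14), and rose by 1.52 ± 0.27 to P0 (adjusted p = 0.00013). The v1 P0 WT library was at 4.85 CPM in suprabasal-like cells, below both Grhl3-/- libraries, and at 3.55 CPM in basal-like cells, between the E16.5 WT values of 3.73 and 3.09 CPM, so that rise did not hold against it. Dermal condensate-like and fibroblast-like cells held more than keratinocytes at E14.5, at 18.6 to 42.9 and 21.2 to 25.6 CPM.

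Ankrd37 (chr8:45996902-46005707, minus strand), an ankyrin-repeat gene known as a HIF target, passed no test of Grhl3-/- against WT within a stage of keratinocytes, except in E14.5 suprabasal-like cells when only that age was fitted (0.54, adjusted p = 0.045). Its genotype difference at E14.5 was higher in suprabasal-like than in basal-like cells by 0.76 ± 0.23 (adjusted p = 0.039; 7.44% of genes passed). Suprabasal-like cells were at 27.0 and 29.8 CPM in WT and 34.0 and 44.2 CPM in Grhl3-/- libraries at E14.5, at 31.2 and 31.6 against 40.0 and 28.5 CPM at E16.5, and at 34.1 and 39.1 against 35.6 and 33.0 CPM at P0. The genotypes overlapped at the 2 later ages, and the P0 difference was -0.18 ± 0.17 (adjusted p = 0.45). The v1 P0 WT library was lower than all of these, at 17.7 CPM. Its 1 call with age in keratinocytes was a rise in WT basal-like cells from E16.5 to P0 (0.64 ± 0.23, adjusted p = 0.021). That rise was lost without the second E16.5 WT library (0.43, adjusted p = 0.23) and without the second P0 WT library (0.52, adjusted p = 0.11); the v1 level of 18.2 CPM lay above both E16.5 WT values of 13.8 and 10.6 CPM.

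**Figure D4:**
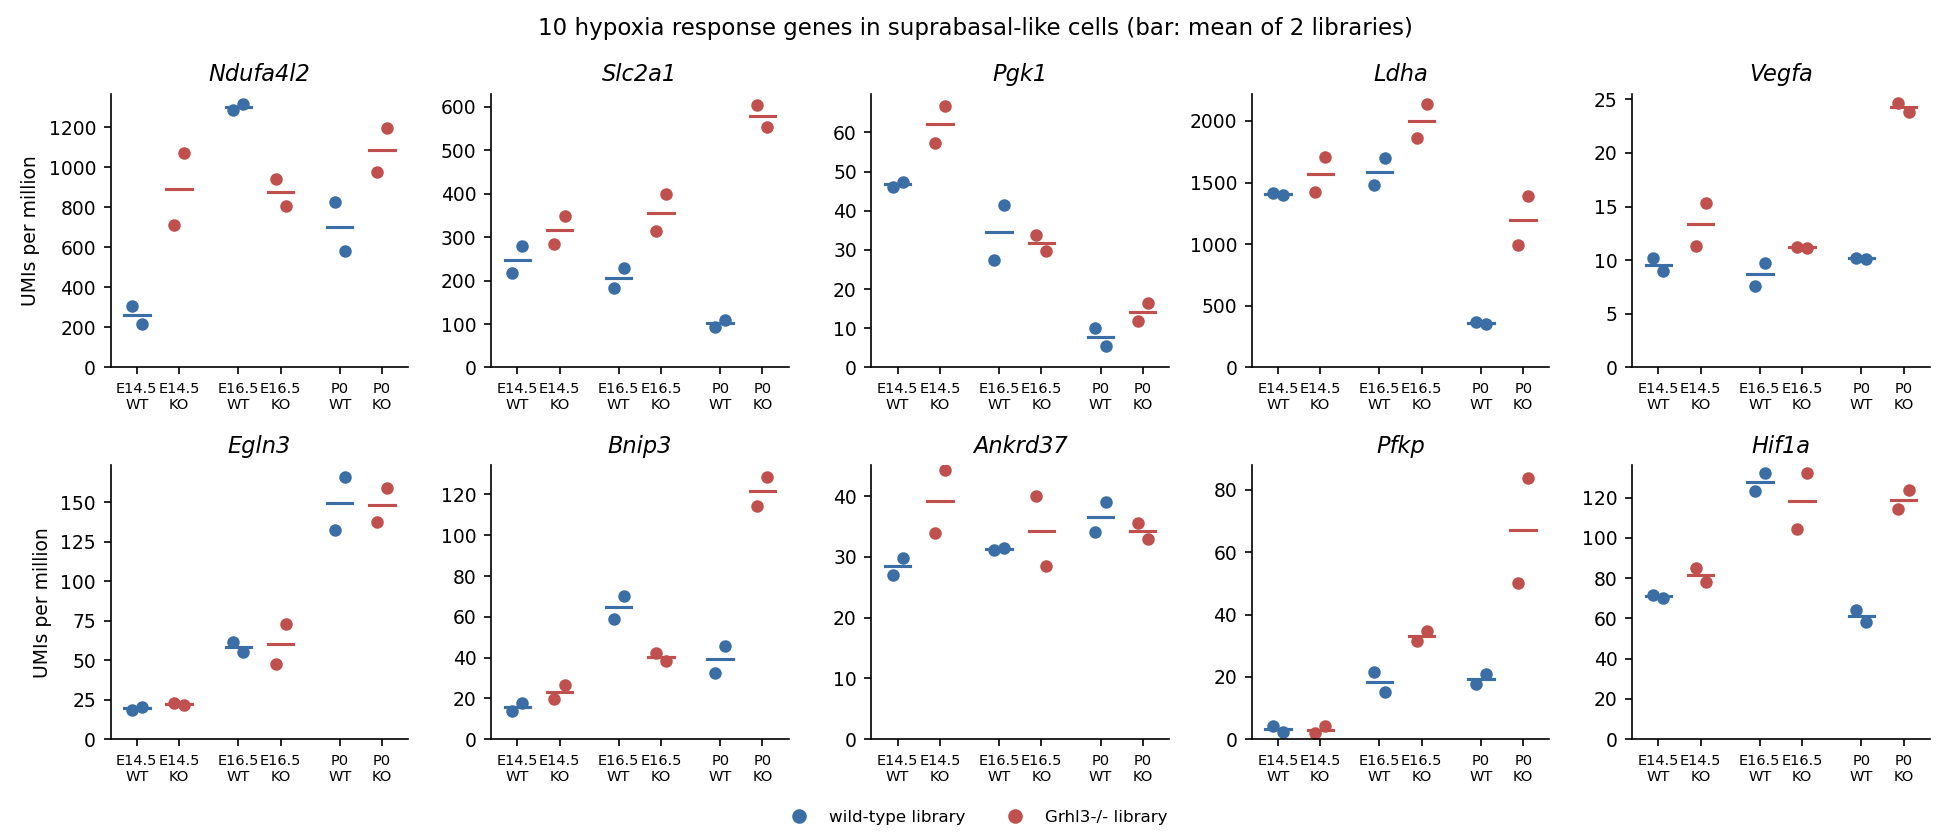
Level of each of the 10 genes in suprabasal-like cells, in CPM, 1 panel per gene with 1 point per library in each age and genotype group. Slc2a1, Pfkp, Ldha, Bnip3, Vegfa and Hif1a have P0 Grhl3-/- points above both P0 WT points, whereas the genotypes overlap at P0 for Egln3 and Ankrd37. Ndufa4l2 and Pgk1 have their P0 Grhl3-/- points above both WT points too, but their P0 differences did not pass the test. How many of all genes separate the P0 libraries in this way was not counted. The v1 library is not drawn; in it Ldha was at 1027.5 CPM, between the P0 Grhl3-/- points.

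Set side by side, the stages differed for most members. Suprabasal-like over basal-like ratios were above 1 in 12 of 12 tested libraries for Ndufa4l2, Pgk1, Ldha, Ankrd37 and Hif1a, with medians of 10.96, 1.89, 2.00, 1.91 and 1.58. They were above 1 in 11 of 12 for Vegfa, Egln3 and Pfkp, with medians of 1.54, 2.55 and 3.85. Bnip3 was higher in suprabasal-like cells in 9 of 12 and Slc2a1 in 6 of 12, with medians of 1.49 and 0.982. The classes were named from keratinocyte markers and not from the members, but the list was chosen with levels by stage known. These ratios are therefore a description with no test. How many of all genes have such ratios was not counted.

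**Figure D5:**
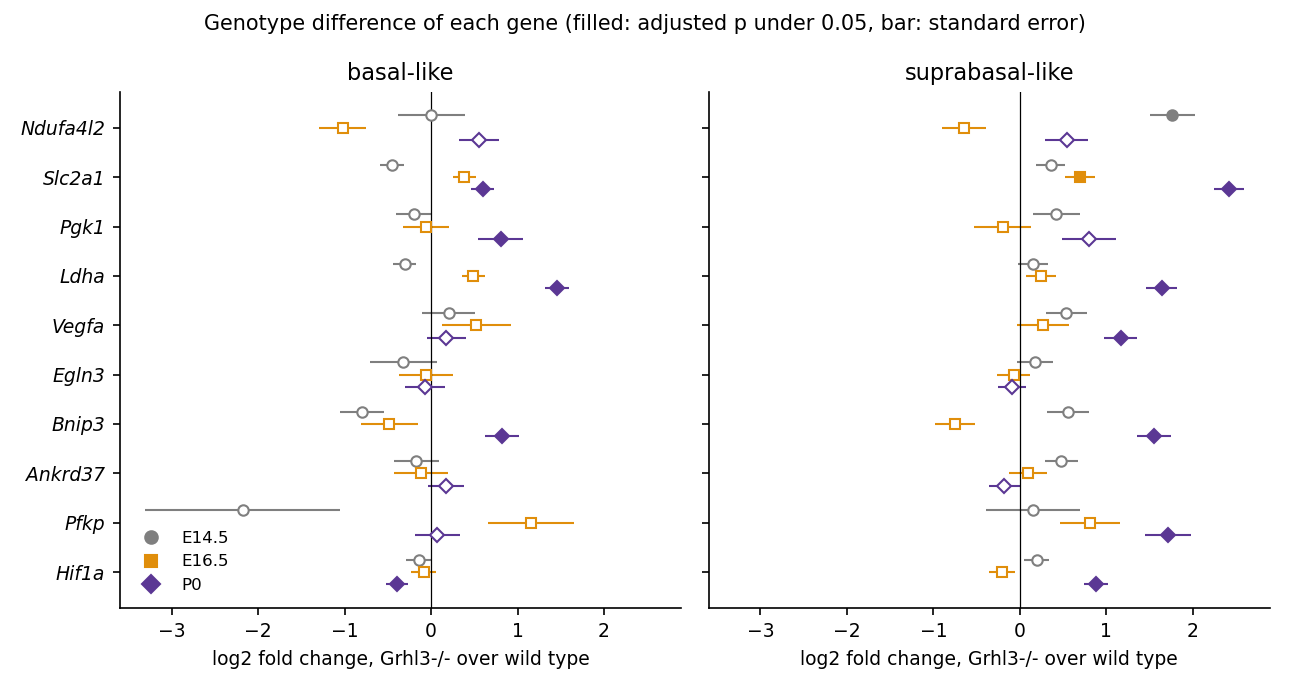
Log2 difference of Grhl3-/- over WT with its standard error for the 10 genes, in basal-like and suprabasal-like cells at E14.5, E16.5 and P0; filled points have an adjusted p under 0.05. In suprabasal-like cells 6 genes are filled at P0, led by Slc2a1 at 2.42, and 1 at each embryonic age; the E14.5 one is Ndufa4l2, which was chosen on these values, so its filling is no test.

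Counted over the list, most genotype differences were at P0, as they were for all genes tested. In P0 suprabasal-like cells 6 of 10 members passed as higher and 0 as lower, where 37.2% of 11418 genes passed, 19% as higher and 18.2% as lower. The members' median was 1.02 and that of all genes -0.02. The Hif1a and Vegfa calls among the 6 were lost when cells were clustered without integration. In P0 basal-like cells Slc2a1, Pgk1, Ldha and Bnip3 passed as higher and Hif1a as lower, so 5 of 10 against 37.3% of 11933 genes (18.8% as higher, 18.5% as lower), with medians of 0.37 and -0.0036. DESeq2 called 3 of the 5 basal members, without Pgk1 and Hif1a, and the v1 WT library went against the direction of the Pgk1, Ldha and Hif1a calls. In suprabasal-like cells its Ldha level lay between the Grhl3-/- values. The basal share stood close to that of all genes. Ldha, Bnip3 and Vegfa were also higher in P0 Grhl3-/- libraries outside the IFE, as in follicle-like cells, where Pfkp and Hif1a were not higher. At E14.5 none passed in basal-like cells by edgeR (0.00838% of genes; 457 genes had an unadjusted p under 0.05), and with no filter on low counts 1 did. None passed in E16.5 basal-like cells either (0.385%), where DESeq2 called 1.

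WT ages, whose libraries are also the controls of the genotype comparisons, differed widely. From E14.5 to E16.5, 1 member rose and 4 fell in basal-like cells, where 16% of genes passed (9.76% as higher, 6.28% as lower), and Ldha, Egln3, Bnip3 and Hif1a rose in suprabasal-like cells, with Ndufa4l2 and Pfkp not counted for the reasons given above, where 30% did (15.9% as higher, 14.1% as lower). With dividing cells left out, 1 of the 5 basal calls passed, as Pgk1, Ldha, Bnip3 and Vegfa came to -0.94, -0.50, -0.92 and -1.33. From E16.5 to P0, Vegfa, Egln3, Bnip3 and Ankrd37 rose and 2 members fell in basal-like cells, Pfkp again not counted (61.1% of genes passed, 30.7% as higher and 30.4% as lower). The v1 library went against this step for Egln3, Ldha and Pgk1, and lay between the E16.5 WT values for Vegfa and Bnip3. For Ankrd37 it was on the side of the step. In suprabasal-like cells 1 member rose and 6 fell (43.2%, with 22.1% as higher and 21.2% as lower).

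Other genes of the pathway, from lists that hold the members too, were counted in the same fits, which the v1 library did not enter. The lists were chosen with earlier results of these data known, so their counts are a description and no independent support. For each count at P0, it is said in how many genes the v1 WT level lay on the side of the tested WT libraries, beyond both Grhl3-/- levels. Among 24 tested genes of glucose uptake, glycolysis and lactate, 13 were higher and 1 lower in P0 Grhl3-/- suprabasal-like cells, where 19% of all genes were higher and 18.2% lower. The v1 level was on the WT side for 10 of the 13 and not for the 1 lower gene. Slc16a3, which exports lactate, was at 1.89 and 2.18 CPM in WT and at 60.8 and 93.6 CPM in Grhl3-/- libraries, with 2.17 CPM in the v1 library. It is counted among the 13, but it passed the filter on low counts through its higher groups, so its difference of 5.14 ± 0.31 is given with no test. Tpi1, a glycolytic isomerase, went from 240 and 232 to 717 and 950 CPM (1.74 ± 0.17), with 452 CPM in the v1 library. Hk2, the hexokinase that traps glucose in the cell, was the 1 lower gene, at 325 and 180 CPM in WT and 88.2 and 83.7 CPM in Grhl3-/- libraries (-1.65 ± 0.26, adjusted p = 0.0004). The v1 library held Hk2 at 8.16 CPM, below both Grhl3-/- libraries, so this call did not hold against it. In basal-like cells 15 of 25 were higher (all genes, 18.8%) and 1 lower (18.5%), Hk2 again (-1.74 ± 0.19), with Tpi1 at 1.61 ± 0.14 and Slc16a3 at 1.53 ± 0.34; the v1 level was on the WT side for 9 of the 15 and not for Hk2.

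Among 25 tested other HIF targets, 11 were higher and 2 lower in P0 Grhl3-/- suprabasal-like cells, against the same 19% and 18.2% of all genes. The v1 level was on the WT side for 11 of the 11 and 0 of the 2. Plod2, which modifies collagen lysines, was at 1.01 and 0.380 CPM in WT and 8.82 and 10.5 CPM in Grhl3-/- libraries, with 0.128 CPM in the v1 library, and passed the filter on low counts through its higher groups. Ddit4, a stress-induced brake on growth signalling, was lower (-0.90 ± 0.27, adjusted p = 0.022), but not against the v1 library, at 26.4 CPM. In basal-like cells 5 were higher and 4 lower of 26, near the 37.3% of all genes that passed in either direction, with the v1 level on the WT side for 4 of the 5 and 2 of the 4. Of 11 tested HIF factors and oxygen sensors, 2 were higher and 1 lower in suprabasal-like cells, no more than the 37.2% of all genes. The v1 level was on the WT side for each of these. Bhlhe40, a repressor induced by HIF, was higher (1.51 ± 0.26), and Epas1, which encodes HIF2A, was at 60.4 and 55.8 CPM in WT and 8.34 and 6.22 CPM in Grhl3-/- libraries (-3.08 ± 0.25, adjusted p = 6.2e-06), with 10.8 CPM in the v1 library, nearer to the Grhl3-/- values. In basal-like cells 0 of 11 were higher and 4 lower (all genes, 18.8% and 18.5%), with Egln2, another prolyl hydroxylase, at -0.83 ± 0.14; the v1 level was on the WT side for 1 of the 4, Egln2. Epas1 and Hif1a, the HIF alpha subunits, thus had opposite signs in suprabasal-like cells, although the Hif1a call depended on the clustering.

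Cytochrome c oxidase subunits, the complex that Ndufa4 belongs to, had 8 higher and 3 lower of 14 in P0 Grhl3-/- suprabasal-like cells (19% and 18.2% of all genes), and the mitochondrially encoded mt-Co1, mt-Co2 and mt-Co3 were the lower ones. The v1 level was on the WT side for 7 of the 8 and for none of those 3. Ndufa4 was at 310 and 269 CPM in WT and 572 and 834 CPM in Grhl3-/- libraries there (1.201 ± 0.19, adjusted p = 0.00037), and at 288 CPM in the v1 library. At E14.5, where Ndufa4l2 was higher in Grhl3-/- suprabasal-like cells, Ndufa4 was at 464 and 419 against 355 and 336 CPM (-0.36 ± 0.19, adjusted p = 0.43).

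At the embryonic ages, none of the 25 tested glycolysis genes, 26 other HIF targets, 11 HIF factors and oxygen sensors or 14 cytochrome c oxidase subunits passed between genotypes in basal-like cells at E14.5 (0.00838% of all genes) or E16.5 (0.385%). In E14.5 suprabasal-like cells 0 of 24 glycolysis genes passed (all genes, 1.59%), and of the 25 tested other HIF targets, Ndufa4l2 set aside, Fam162a did, at 898 and 655 CPM in WT and 1364 and 1582 CPM in Grhl3-/- libraries (0.92 ± 0.16, adjusted p = 0.016). None of the HIF factors or cytochrome c oxidase subunits passed there. At E16.5, 2 of 24 glycolysis genes were higher and 1 lower, 1 of 25 other HIF targets was lower and none of the other two lists passed (all genes, 4.81%). Slc16a3 was higher (1.61 ± 0.31, adjusted p = 0.012), at 11.8 and 14.4 against 35.1 and 53.2 CPM. With age, WT basal-like cells had 0 of 25 glycolysis genes higher and 16 lower at E16.5 than at E14.5 (all genes, 9.76% and 6.28%), a count that holds Slc2a3, a glucose transporter that passed the filter on low counts through its higher groups, at 24.2 and 17.1 CPM at E14.5 and 0.746 and 1.62 CPM at E16.5. WT suprabasal-like cells had 6 of 24 higher and 2 lower in that step (all genes, 15.9% and 14.1%), and 1 higher and 14 lower from E16.5 to P0 (22.1% and 21.2%), where Hk2 was the higher one (2.47 ± 0.28). The v1 level lay beyond both E16.5 levels in the direction of the call for 13 of the 14 and not for Hk2.

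The P0 suprabasal-like cells of the genotypes also differed in other markers, which stand beside every P0 count. Summed basal markers were at 3578 to 4307 CPM in WT and 18374 to 20355 CPM in Grhl3-/- libraries, granular markers at 6365 to 6514 against 275 to 1170 CPM, and markers of dividing cells at 86.0 to 122 against 467 to 666 CPM. In the v1 library these sums were 14714, 3350 and 122 CPM. The dissociation-response genes summed to 3621 to 4180 CPM in WT and 5634 to 6839 CPM in Grhl3-/- libraries, and 13 of its 18 genes passed as higher, as 19% of all genes did, with the v1 level on the WT side for 11. Of the epidermal cells, 44.5% and 47.5% in Grhl3-/- and 32.8% and 33.5% in WT libraries were in clusters that met no class. The part of these shifts in the member differences was not tested beyond the fits without dividing cells and in spinous-like cells alone, in which Slc2a1, Pfkp, Ldha and Bnip3 still passed.

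Finally, genes with a pattern like that of Ndufa4l2 were sought over 35 WT class means, by Pearson correlation of log2(CPM + 10) among 11272 genes. The 5 highest were Il34 at 0.805, Map3k6 at 0.780, Plekhh3 at 0.770, Nab1 at 0.736 and Plxdc2 at 0.709. Of the members, Egln3 came to 0.456, Hif1a to 0.385, Ankrd37 to 0.232, Slc2a1 to 0.175, Pfkp to 0.0898, Vegfa to 0.0112, Ldha to -0.0652, Pgk1 to -0.104 and Bnip3 to -0.173, and the paralogue Ndufa4 to -0.413. Classes of 1 age share their libraries, so these values describe the pattern only.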

How the data were processed

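Counts were deposited by the authors as 10x Chromium 3′ tables of whole UMIs per gene and cell, aligned to mm10 with Cell Ranger (2.01 in the study's methods, 1.3.1 in the submitters' processing notes). Cells were filtered as in the study, at 600 to 4800 genes for embryonic skin and 900 to 7700 for P0, with at most 10% mitochondrial UMIs. Doublets were scored with Scrublet (scanpy 1.11.5), whose own threshold marked 1 to 115 cells per library and so had not worked; cells were kept, and an alternative dropped the top 4% by score. Cells were integrated per age and clustered in Seurat 5.3.0 (3000 variable genes without the members, 30 components, resolution 1.0, epidermal cells again at 0.8). Clusters were named from fixed markers with score limits of 1.2 (basal) and 1.0 (suprabasal) set after seeing the scores, which left out 3.11% to 6.51% of epidermal cells at E14.5, 28.1% to 37.9% at E16.5, 32.8% to 33.5% in P0 WT, 44.5% to 47.5% in P0 Grhl3-/- and 19.3% in v1. Spinous-like and granular-like clusters together are the suprabasal-like class. Fibroblast-like and other classes were named in the same way.

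UMIs were summed per library and class (at least 20 cells) and tested with the edgeR 4.0.16 quasi-likelihood test in R 4.3.3, with 1 coefficient per group, TMM, the expression filter of edgeR and Benjamini-Hochberg adjustment over all genes tested, at 0.05. The 12 libraries of the 6 groups shared 1 spread, or the 8 embryonic ones for fibroblast-like cells; the SE is the log2 difference divided by the root of F. Alternatives were RLE factors, DESeq2 1.42.0, no filter, only the ages compared, the replicate block, each library left out, other classes, doublets removed and dividing cells left out. The steps were tested on simulated data. The members and the lists of 13 HIF factors and oxygen sensors, 25 glycolysis and lactate genes, 28 other targets, 14 cytochrome c oxidase subunits and 18 dissociation-response genes were chosen with earlier results of these data known. Genes named are the members, Ndufa4, the list genes among the 3 highest and 3 lowest past the threshold in a comparison, and the 5 genes most like Ndufa4l2. Thinned shares drew 3000 UMIs per cell. Positions are from GENCODE M21 (GRCm38). Ndufa4l2 overlaps Shmt2, Ankrd37 overlaps Ufsp2 and Lrp2bp, and Pfkp overlaps Pitrm1 on the opposite strand, and Slc2a1 and Hif1a overlap antisense models; whether counting used the strand was not given in the sources used here.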

Additional observations from a re-analysis of the deposited data

Results flagged for a closer look

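Each value here is a difference between 2 genotype effects (Grhl3-/- over WT) on the log2 scale, from an edgeR test of that difference with an adjusted p under 0.05 over all genes, and each was marked because the effect differed between ages or between stages. No explanation was weighed. For Ndufa4l2, the values with E14.5 suprabasal-like cells as an arm (-1.22, -2.41 and 1.88) rest on the levels by which the gene was chosen and are a description only. The values for P0 against each embryonic age share the P0 libraries, and rest on the 2 tested P0 WT libraries: the v1 WT library lay above both P0 Grhl3-/- libraries for Ldha in basal-like cells and for Pgk1.

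In basal-like cells, the effect at P0 minus that at E14.5 was 1.62 for Bnip3, 1.77 for Ldha, 0.9986 for Pgk1 and 1.05 for Slc2a1. The effect at P0 minus that at E16.5 was 1.31 for Bnip3, 0.97 for Ldha and 1.58 for Ndufa4l2.

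In suprabasal-like cells, the effect at P0 minus that at E14.5 was 0.998 for Bnip3, 0.68 for Hif1a, 1.49 for Ldha, 2.06 for Slc2a1 and -1.22 for Ndufa4l2. The effect at P0 minus that at E16.5 was 2.30 for Bnip3, 1.09 for Hif1a, 1.40 for Ldha and 1.73 for Slc2a1. For Ndufa4l2 the effect at E16.5 minus that at E14.5 was -2.41.

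The effect in suprabasal-like minus that in basal-like cells at E14.5 was 0.76 for Ankrd37, 1.39 for Bnip3, 0.49 for Ldha, 1.88 for Ndufa4l2, 0.64 for Pgk1 and 0.85 for Slc2a1. At P0 it was 1.26 for Hif1a, 1.53 for Pfkp, 1.80 for Slc2a1 and 0.97 for Vegfa. At E16.5 none of the members passed, where 2.89% of genes did and 1381 of 10326 genes had an unadjusted p under 0.05.

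The P0 WT library of the v1 chemistry, which entered no test, held Ndufa4l2 at 539 CPM in suprabasal-like cells; the other P0 WT libraries were at 825 and 579 CPM.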

How the results depend on the processing

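Of 130 member values, 48 passed the threshold. Under the alternatives 1699 values were recomputed: 1579 stayed on their side of the threshold, 75 no longer passed, 45 newly passed and 0 passed with the opposite sign, while 65 changed sign without passing on either side. Under RLE factors or DESeq2 the median over all genes moved by at most 0.0560. Put-back clusters were an alternative chosen after seeing the data. P0 basal-like cells gave no value when clustered without integration, because the Grhl3-/- libraries had too few such cells. In what follows the cause of a changed count was not tested, and counts are of members and of all genes past the threshold; they include Ndufa4l2 and Pfkp where the report gives them no test.

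For genotype in basal-like cells at E14.5 (0 members, 1 gene), no filter gave 1 and 37, only the age compared 9 genes and leaving out dividing cells 0. At E16.5 (0 and 46), no filter gave 2 and 213, only the age compared 2 and 113, DESeq2 1 member and leaving out dividing cells 21 genes. At P0 (5 and 4454), leaving out dividing cells gave 1907 genes and DESeq2 3 and 2679. In suprabasal-like cells at E14.5 (1 and 181), no filter gave 645 genes, only the age compared 3 and 1175, and leaving out dividing cells 0 and 109. At E16.5 (1 and 549), no filter gave 3 and 980, only the age compared 2 members, leaving out dividing cells 0, spinous-like cells alone 0 and 131, and clustering without integration 260 genes. At P0 (6 and 4249), leaving out dividing cells gave 2572 and clustering without integration 2658 genes. In fibroblast-like cells at E14.5 (0 and 334), no filter gave 4 and 1371, only the age compared 28 and leaving out dividing cells 218 genes. At E16.5 (1 and 116), no filter gave 2 and 683, only the age compared 2 and 259, and leaving out dividing cells or DESeq2 gave 0 members.

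For WT E16.5 over E14.5 in basal-like cells (5 and 1914), only the ages compared gave 8 members, leaving out dividing cells 1 and 688 and DESeq2 1231 genes; in suprabasal-like cells (6 and 3428) leaving out dividing cells gave 1426 genes. For WT P0 over E16.5 in basal-like cells (7 and 7287) it gave 4586 genes. The mean Ndufa4l2 level in basal-like cells as a mean of shares per cell was 70.6 CPM in E16.5 and 269 CPM in P0 Grhl3-/- libraries, and with doublets removed 277 CPM in the latter; clustering without integration gave 62.0 CPM in basal-like and 984 CPM in suprabasal-like cells of E16.5 Grhl3-/- libraries.

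Same-numbered libraries did not deviate together (correlations of -0.049 to 0.045), so the numbers do not pair them. With the replicate block, E14.5 counts were 2 genes in basal-like, 117 in suprabasal-like and 155 in fibroblast-like cells, and 0 members passed in E16.5 fibroblast-like cells (Ankrd37 -0.78, adjusted p = 0.094); the block changed no other member call.

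Leaving out each library in turn, genotype counts of members and genes in basal-like cells were 0 to 0 and 1 to 8 at E14.5, 0 to 0 and 11 to 30 at E16.5, and 3 to 5 and 3205 to 3944 at P0. In suprabasal-like cells they were 0 to 1 and 17 to 54, 0 to 0 and 173 to 443, and 6 to 8 and 3274 to 3537, and in fibroblast-like cells 0 to 1 and 68 to 309 at E14.5 and 0 to 0 and 23 to 88 at E16.5. WT E16.5 over E14.5 gave 4 to 6 and 773 to 1172 in basal-like, 5 to 6 and 1919 to 2346 in suprabasal-like and 3 to 6 and 3478 to 4854 in fibroblast-like cells. WT P0 over E16.5 gave 6 to 8 and 5820 to 6716 in basal-like and 5 to 7 and 2959 to 4270 in suprabasal-like cells. With 2 animals a group and 64 to 309 suprabasal-like cells per library at E16.5, a p that misses the threshold does not show that levels were alike.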
